A study of Drosophila melanogaster with 6 samples.

Results

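In Drosophila Kc cells, 29 genes made from more than 1 annotated transcript had a different average transcript length in the cells labelled knockout of CG14906 (KO) than in wild type (WT). They were selected on their measured lengths among 4077 that could have qualified and 17714 in the deposited tables, as those whose isoform-weighted length differed by a ratio of at least 1.1 between the group means, with the 3 KO values all above or all below the 3 WT values. Qualifying genes had at least 2 transcripts and a mean abundance of at least 5 TPM, a transcript abundance scaled to the library's total, in both groups. In 18 of the 29 genes the length was larger in KO, and in 11 it was smaller. Because this length difference chose the genes, it is described here and not tested.

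Many fly genes make several messenger RNAs from 1 locus, through different start sites, different splicing and different poly(A) sites. Messages that end at a more distant poly(A) site carry a longer 3′ untranslated region with the same protein code, while a changed start site or exon can change the protein. Some neighbouring fly genes also share a single long transcript that runs through both of them. The isoform-weighted length is the mean of the annotated transcript lengths of a gene, each weighted by the estimated share of that transcript, so it changes when the cells' mixture of transcripts, as estimated, changes.

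The cells are Kc, an embryonic line of blood cell character, and poly(A)-selected RNA was measured in 3 libraries per group. CG14906 is the fly Mettl4 gene, which codes for an RNA methyltransferase that the series title ties to N6-methyladenosine on U2 snRNA, an RNA of the spliceosome. The titles of the 3 KO libraries carry the letters OE while their genotype label gives a knockout, and the labels name neither the deletion, nor a clone, nor separate cultures, so the spread between libraries may be technical. CG14906 itself was listed at 25.5, 27.5 and 22.4 TPM in WT and at 26.5, 24.7 and 27.8 TPM in KO, with the same length of 1177 bases in all 6 libraries. The level of the CG14906 message therefore overlapped between the groups, and these gene-level values do not check the knockout label.

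Depth ranged from 9963557 to 18906951 expected counts per library. Of 10 plasmatocyte markers 8 had a mean of at least 1 TPM, and their summed level was 830 to 1236 TPM in WT and 1331 to 2225 TPM in KO. Germline markers summed to 54.5 to 68.1 TPM in WT and 174 to 191 TPM in KO, lamellocyte markers to 368 to 379 and 376 to 406 TPM, and markers of neurons to 17.5 to 23.3 and 18.4 to 24.6 TPM. Crystal cell, muscle and fat body markers stayed under 3 TPM in sum in every library. The part of these marker differences in the lengths was not tested, and a change in the mixture of cells cannot be told apart from a change within each cell.

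Among the 4077 qualifying genes, lengths of the 2 groups did not overlap in 490 genes that were longer in KO (12.0%) and in 386 that were shorter (9.47%), 21.5% in all, so complete separation alone was common. A ratio of at least 1.1 was not: 18 genes, 0.442% of those qualifying, were longer in KO by this rule and 11, 0.270%, were shorter, 0.711% together. The median absolute log2 length ratio was 0.0041 over the qualifying genes and 0.20 over the 29. The ratio of KO to WT length was 1.1004 to 1.26 in the longer genes, with a median of 1.15, and the ratio of WT to KO length was 1.1001 to 2.01 in the shorter genes, with a median of 1.15. In 13 of the 29 genes the gap between the groups was larger than the wider group's own range, and in 16 it was smaller.

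**Figure D1:**
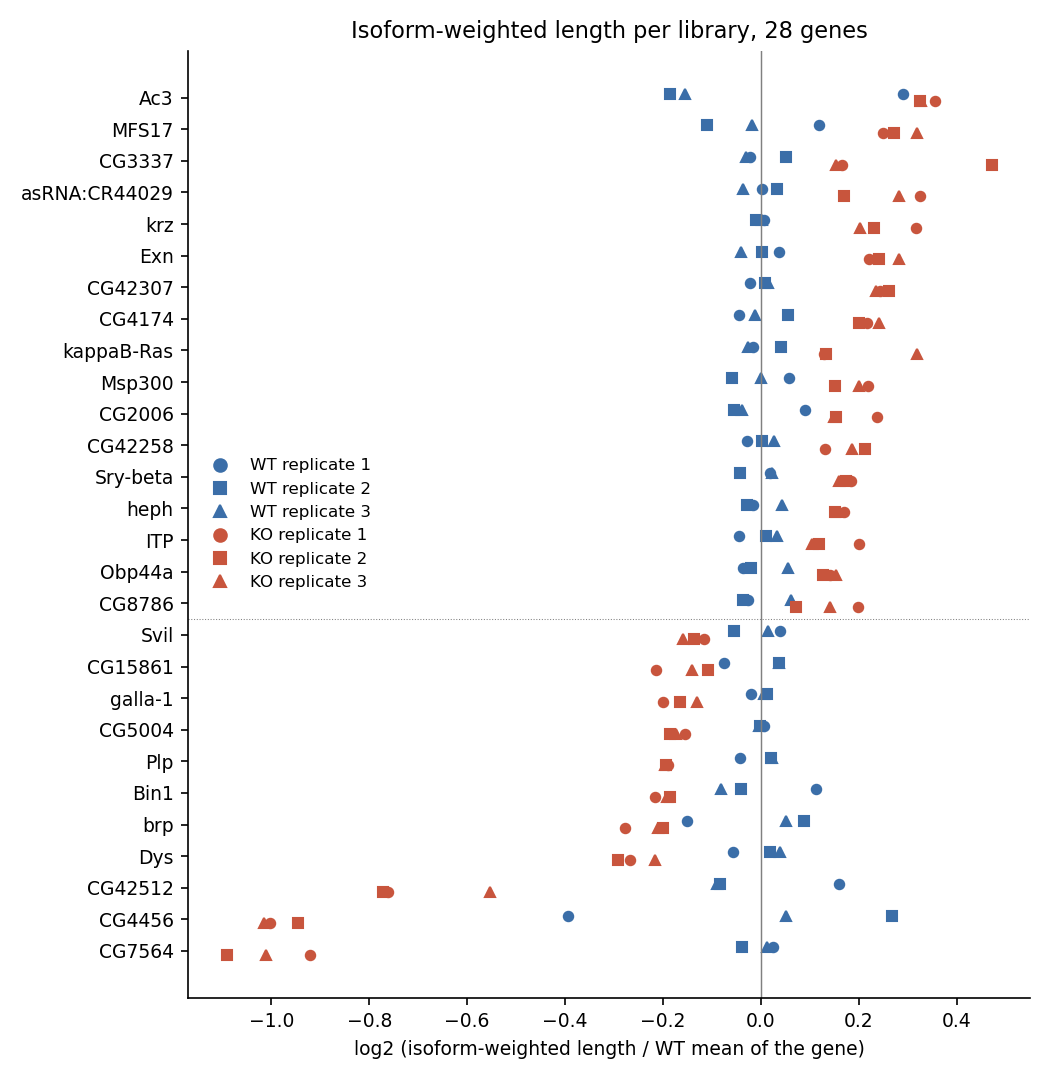
Isoform-weighted length of 28 of the 29 genes in each of the 6 libraries, as the log2 ratio to the mean of the 3 WT libraries (WT blue, KO red, a shape per replicate), with the longer genes above the dotted line and the shorter below. CG7564, CG4456 and CG42512 stand apart at the short end, and 1 WT library of Ac3 lies close to KO.

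Among the genes with 2 transcripts, the highest ratio of long-form shares, 8.80, was in krz, which codes for the fly non-visual beta-arrestin, an adaptor that binds activated receptors and turns their signals down. The gene lies on chromosome arm 3R at 32045314 to 32051993 on the minus strand, and its 2 transcripts of 1988 and 5281 bases share 1 coding sequence of 1410 bases, with the added bases downstream of it. The weighted length was 2047, 2024 and 2042 bases in WT and 2538, 2392 and 2345 bases in KO. With 2 transcripts, a length fixes the share of each, and the long form of krz made up 1.78%, 1.11% and 1.63% of krz transcripts in WT and 16.7%, 12.3% and 10.8% in KO. As abundance, the long form stood at 0.348, 0.178 and 0.281 TPM in WT and at 3.09, 3.01 and 3.13 TPM in KO. The short form stood at 17.3 ± 1.695 TPM in WT and 20.9 ± 5.18 TPM in KO (SD, n = 3), with overlapping ranges. The added bases of krz overlap no exon of another annotated gene.

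CG3337, on arm 3R at 21220704 to 21223584 on the minus strand, has transcripts of 708 and 2819 bases with the same coding sequence of 612 bases. Lengths were 812, 854 and 807 bases in WT and 924, 1142 and 916 bases in KO. The long form was estimated at 1.27, 2.43 and 1.42 TPM in WT and 3.43, 6.28 and 3.63 TPM in KO, with KO replicate 2 well above the other two. The short form was at 28.8 TPM in WT and 29.2 TPM in KO. Of the 2111 added bases, 1928 are exon of Oga, the enzyme that removes O-GlcNAc from proteins, on the opposite strand, at 34.9 ± 1.52 TPM in WT and 33.3 ± 4.93 TPM in KO. Whether the counting used strand is not given in the sources used here. Reads of Oga and of the CG3337 extension therefore cannot be told apart on the bases they share.

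CG2006, on arm 3R at 29489468 to 29491383 on the plus strand, has single-exon transcripts of 1139 and 1916 bases with the same coding sequence of 981 bases. Its length was 1540, 1393 and 1409 bases in WT and 1705, 1609 and 1605 bases in KO. The long form took 51.6%, 32.7% and 34.7% of transcripts in WT and 72.8%, 60.5% and 59.9% in KO, so WT replicate 1 lay much nearer to KO than the other WT libraries did. The long form was at 2.97, 2.36 and 2.699 TPM in WT and 4.79, 4.79 and 4.60 TPM in KO, and the short form averaged 4.24 and 2.66 TPM with overlapping ranges. Spase12, a signal peptidase subunit gene on the opposite strand, covers 430 of the 777 added bases, at 114.6 ± 10.6 TPM in WT and 134 ± 13.9 TPM in KO. Unless the counting used strand, reads of Spase12 and of the CG2006 extension cannot be told apart on the bases they share.

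**Figure D2:**
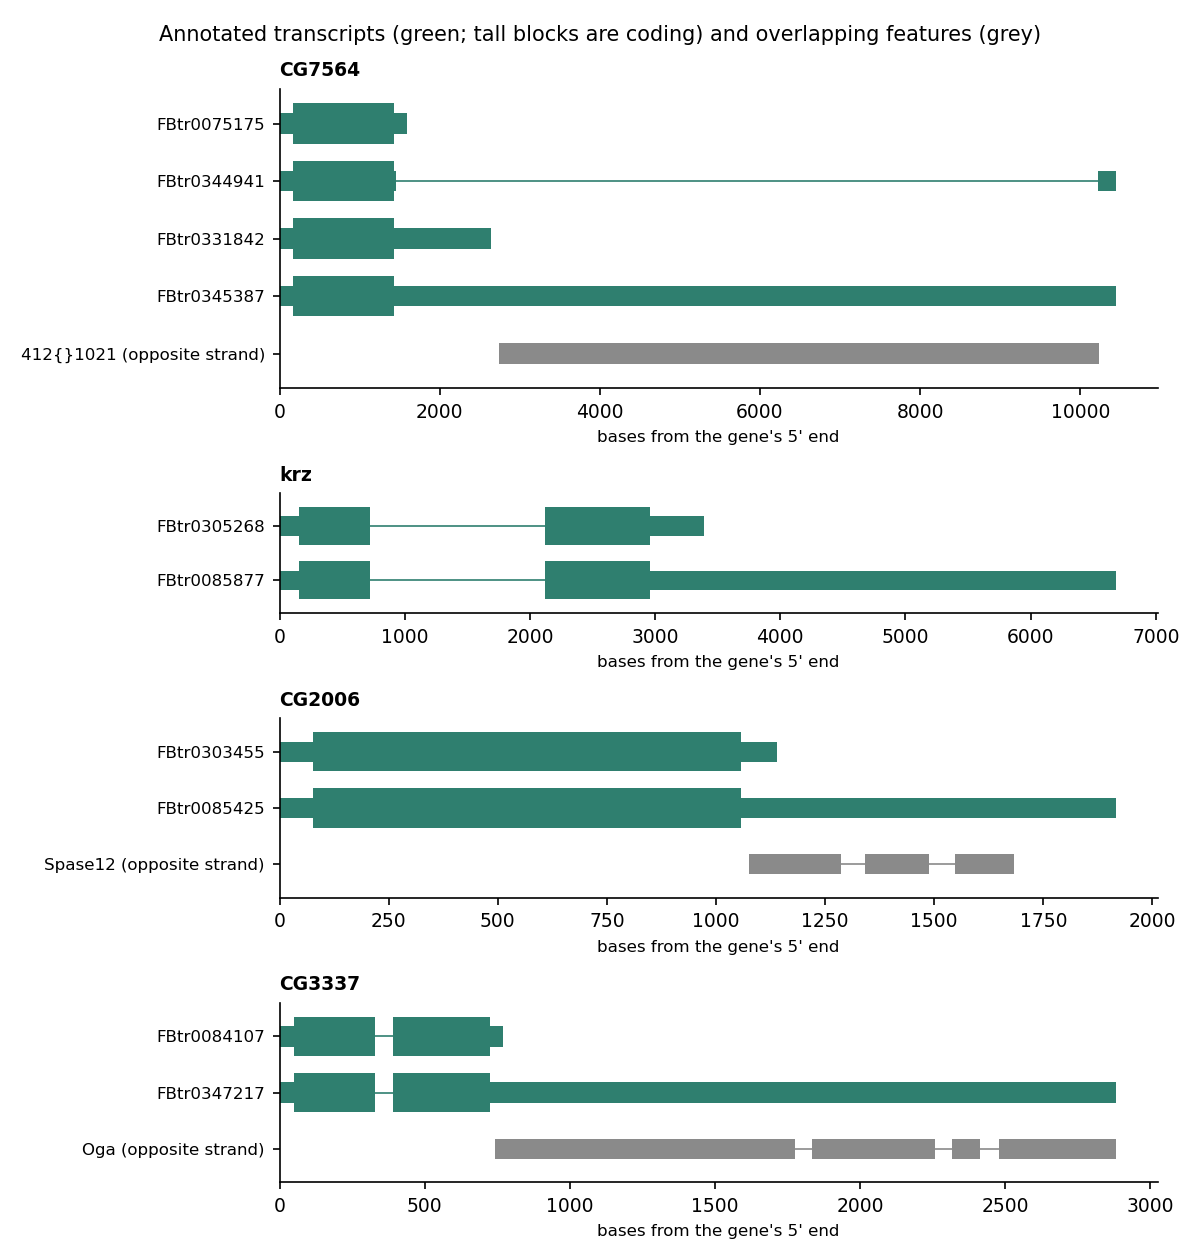
Annotated transcripts of CG7564, krz, CG2006 and CG3337 (green, coding parts taller, lines for introns) and overlapping features on the opposite strand (grey), in bases from the 5′ end of each gene. The long transcripts of krz, CG2006 and CG3337 add bases downstream of an unchanged coding part, and the longest CG7564 transcript is 10443 bases against 2639 for the next longest.

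The largest change of all was in CG7564, where the mean length was 9082 ± 210 bases in WT and 4522 ± 266 bases in KO (SD, n = 3). The gene lies on arm 3L at 17514298 to 17524740 on the plus strand, and its 4 transcripts of 1587, 1672, 2639 and 10443 bases share a coding sequence of 1260 bases. Lengths were 9244, 8845 and 9157 bases in WT and 4794, 4263 and 4510 bases in KO, a ratio of 2.01 with narrow ranges in both groups. The longest transcript was between 79.5% and 86.5% of CG7564 transcripts over the WT libraries and between 20.8% and 36.2% over the KO libraries, the bounds reflecting which of the 3 short transcripts is assumed. Its abundance was 26.3 to 27.3 TPM in WT and 10.1 to 15.2 TPM in KO, while the short transcripts together were at 4.21 to 6.78 TPM in WT and 24.6 to 38.3 TPM in KO. Of the 8856 added bases, 7501 are an annotated copy of the 412 element, an LTR retrotransposon, on the opposite strand. The element has no row in the deposited tables, so its own level was not analysed here. Reads of the element, on either strand, therefore cannot be told apart from those of the longest CG7564 transcript. The shares and levels given for that transcript may include them, which was not tested.

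In 6 of the 29 genes (20.7%) at least 1 transcript was identical, exon for exon, to a transcript listed under a neighbouring gene, compared with 103 (3.98%) of 2591 other qualifying genes whose longest transcript was at least 1.1 times the shortest. The ratio limit favours genes with a wide range of transcript lengths. The comparison genes were not matched for that range, so these percentages are not on equal terms. These shared transcripts run through both genes, so reads on them belong to both names. Reads cannot tell such identical copies apart, so an equal level under both names is no independent check. The level listed under either name may be only part of the total.

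Sry-beta, which codes for a zinc finger protein, lies on arm 3R at 30039719 to 30043071 and shares a 3300-base transcript with Sry-alpha, a gene needed when the early embryo divides into cells. Lengths of Sry-beta were 1371, 1314 and 1375 bases in WT and 1536, 1527 and 1512 bases in KO. The shared transcript was at 1.39, 0.774 and 1.28 TPM in WT and 2.25, 2.15 and 2.49 TPM in KO. Solving it from the Sry-alpha lengths gave values within 0.00487 TPM of these, an agreement that identical copies would give in any case. The 1260-base Sry-beta transcript went the other way, from 24.7 to 15.4 TPM on average, without overlap. The short form was lower and the shared form higher in every KO library than in every WT library.

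CG42307, on arm 3L at 7329132 to 7333471, shares its 3 long transcripts of 4010 to 4022 bases with mus312, which codes for a scaffold of nucleases that repair DNA. Its length was 1016, 1037 and 1041 bases in WT and 1221, 1237 and 1214 bases in KO, with a gap 6.89 times the wider group's range. The short transcript of 492 bases was bounded at 67.7 to 69.2 TPM in WT and 38.1 to 40.6 TPM in KO. The long class, equal to the mus312 level, was at 12.1, 12.6 and 12.5 TPM in WT and 10.6, 10.2 and 10.4 TPM in KO. Both forms were lower in KO and the short one by more, so here the length was larger although no long form was higher.

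CG4174, on arm 3L at 18600150 to 18617943, shares transcripts of 3231 and 3428 bases with CG13380. Its length was 2515, 2696 and 2571 bases in WT and 3016, 2978 and 3066 bases in KO. The short transcript of 1630 bases was bounded at 5.38 to 8.48 TPM in WT and 1.06 to 2.64 TPM in KO, while the long class overlapped between groups. The same held for kappaB-Ras, a small GTPase relative that restrains NF-kappaB in mammals, which lies on arm 2R at 7443824 to 7445792 and shares a 1842-base transcript with CG30503. Its length was 1066, 1109 and 1058 bases in WT and 1178, 1182 and 1344 bases in KO, with KO replicate 3 apart from the other two. Its 933-base transcript was bounded at 30.3 to 35.4 TPM in WT and 8.24 to 13.2 TPM in KO, and its long class overlapped at 4.58 to 7.28 and 3.98 to 6.80 TPM. CG30503, whose deposited length equals that of the shared transcript in all 6 libraries, was at 0.87, 0 and 1.89 TPM in WT and 0.28, 1.5 and 0.57 TPM in KO, so the shared transcript was a small, overlapping part of kappaB-Ras.

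CG42512, on arm X at 16651376 to 16653275, had little in KO of a 1782-base transcript that it shares with CG32573. Its length was 1176, 995 and 990 bases in WT and 622, 617 and 719 bases in KO. The shared transcript was at 4.01, 2.48 and 2.37 TPM in WT and at 0.041, 0 and 0.895 TPM in KO. The same values solved from CG32573 differed by at most 0.00264 TPM, which is again no independent check. The 617-base transcript of CG42512 averaged 4.84 TPM in WT and 9.30 TPM in KO, and CG32573 as a whole stood at 4.48, 5.22 and 4.80 TPM in WT and 10.99, 13.1 and 10.5 TPM in KO. The form of CG42512 that ends within the gene and the CG32573 total were therefore higher in every KO library, while the transcript through both was lower.

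CG4456, on arm 3L at 9372722 to 9374964, shares a 1900-base transcript with Hsp22, a small heat shock protein of mitochondria. Its length was 739, 1168 and 1005 bases in WT and 484, 504 and 480 bases in KO, so the WT libraries were spread widely and the KO libraries were not. Solved from Hsp22, the shared transcript was at 2.89, 2.19 and 2.80 TPM in WT and 0.583, 0.438 and 0 TPM in KO. The rest of CG4456 was at 11.5, 2.35 and 4.75 TPM in WT and 17.9, 12.7 and 14.5 TPM in KO. Hsp22 as a whole was at 45.8, 29.8 and 32.4 TPM in WT and at 156, 18.4 and 18.4 TPM in KO, where only KO replicate 1 was high, whereas the shared form was low in all 3 KO libraries.

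**Figure D3:**
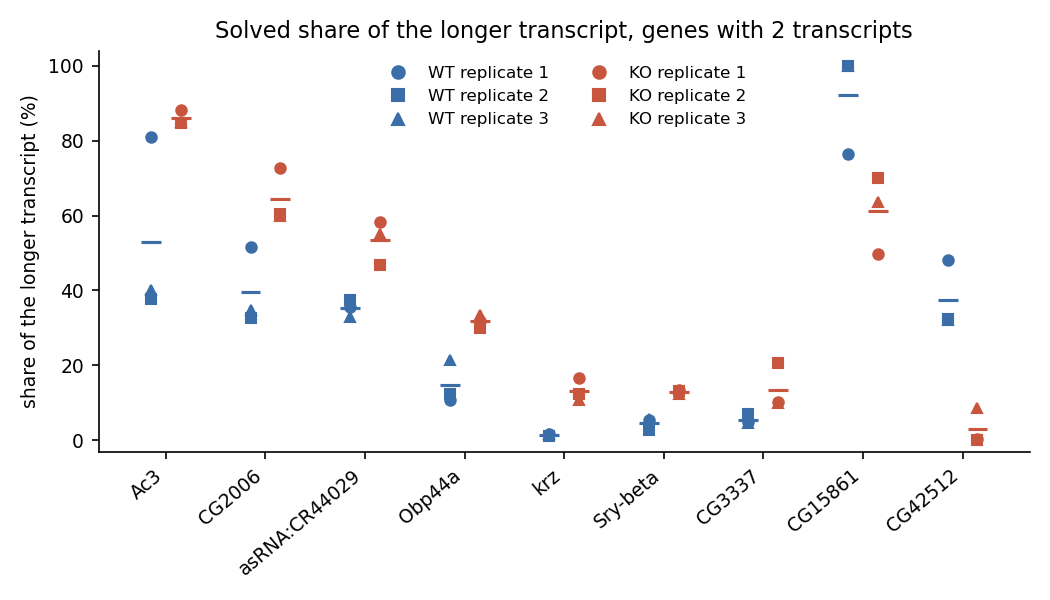
Share of the long transcript, in percent, solved for each library in 9 of the 10 genes with 2 annotated transcripts, WT in blue and KO in red with bars at the group means. The long share is higher in every KO library than in every WT library for 7 genes and lower for CG15861 and CG42512. The share is solved from the length that chose the genes, so this separation was fixed in advance.

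**Figure D4:**
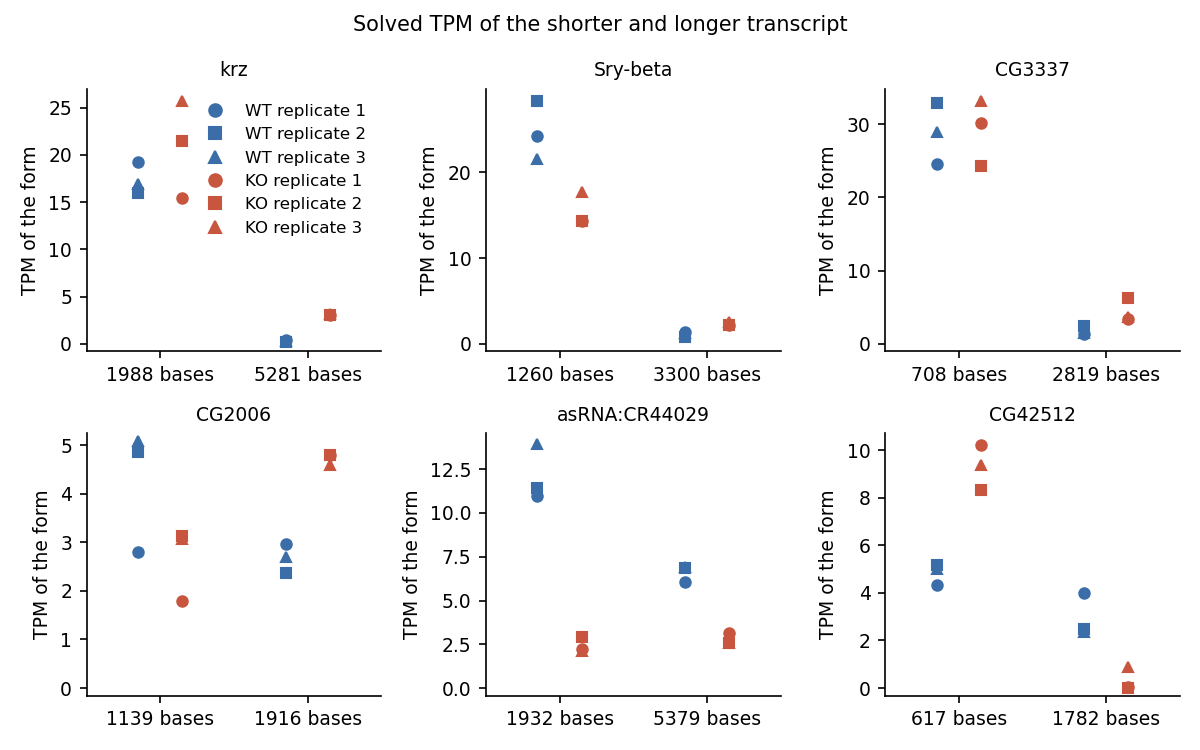
Abundance in TPM of the long and short transcripts, by library, for 6 of the genes with 2 annotated transcripts (krz, Sry-beta, CG3337, CG2006, asRNA:CR44029 and CG42512), with transcript lengths in bases on the horizontal axis, WT in blue and KO in red. The long form of krz is at 0.348 TPM or less in WT and at 3.01 TPM or more in KO, and its short form ranges overlap.

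Over the 15 genes whose shares could be separated between groups, which are the 10 with 2 transcripts and Exn, CG42307, CG4174, kappaB-Ras and CG7564, the forms moved in several ways. The long form was higher in KO without overlap in 6 of them (Ac3, CG3337, krz, CG2006 and Sry-beta among them), lower in 5 (asRNA:CR44029, CG42307, CG15861, CG42512 and CG7564) and overlapped in 4. The short form was higher in 2, lower in 7 and overlapped in 6. The short form of Ac3 is among the 7 by a narrow margin, at 1.45 TPM in WT replicate 1 and 1.41 TPM in KO replicate 2. A longer average in KO therefore did not by itself mean more of a long message. The level of a form is the gene's TPM times a share solved from the lengths that chose the genes. Forms of other qualifying genes were not counted in this way, so these counts are a description only.

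In 14 of the 29 genes at least some annotated transcripts differ in coding sequence, so the mixture may concern the protein too. A changed length alone does not show this. In ITP, the longest transcript of 3646 bases and the shortest of 974 bases both have 357 coding bases. Ac3, an adenylyl cyclase that makes cyclic AMP, lies on arm 2L at 21632587 to 21647964 and has transcripts of 2126 bases with 1023 coding bases and of 5055 bases with 3501. Its length was 4501, 3234 and 3305 bases in WT and 4708, 4606 and 4617 bases in KO, and the long share was 81.1%, 37.8% and 40.2% in WT and 88.2%, 84.7% and 85.0% in KO. WT replicate 1 lay close to KO and apart from the other WT libraries. Of the 3046 bases that only the long Ac3 transcript has, 2934 lie downstream. The long form averaged 4.03 TPM in WT and 8.16 TPM in KO, and the short form 3.56 and 1.32 TPM.

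Exn, an exchange factor that activates small GTPases, lies on arm 3L at 16970013 to 16994388 and has a class of transcripts of 3475 to 3506 bases with 3153 coding bases and a class of 6887 to 6987 bases with 6087, which begins upstream. Lengths were 4977, 4862 and 4717 bases in WT and 5658, 5733 and 5903 bases in KO. The long class was bounded at 34.8% to 44.0% in WT and 61.8% to 71.1% in KO. The short class was at 5.44 to 8.89 TPM in WT and 2.35 to 3.52 TPM in KO, while the long class overlapped at 3.49 to 6.78 and 5.22 to 5.90 TPM.

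Dys, the fly dystrophin, which links the cytoskeleton to the cell surface, was shorter in KO at 8816, 8669 and 9137 bases against 10194, 10747 and 10898 bases in WT. The gene spans 19461085 to 19597288 on arm 3R. Its transcripts form a class of 4723 to 6597 bases and a class of 10593 to 13484 bases, and the long class was bounded at 52.2% to 100% in WT and 30.1% to 75.2% in KO, ranges that overlap. Plp, on arm 3L at 15066081 to 15094724, codes for a pericentrin-like protein of the centrosome and was at 6184, 6466 and 6473 bases in WT and 5589, 5575 and 5561 bases in KO. The KO libraries of Plp lay close together, and the gap to WT was 2.06 times the wider group's range. Msp300, a nesprin that connects the nucleus to the cytoskeleton, was longer in KO at 32174, 30732 and 31762 bases against 28763, 26546 and 27654 bases, among 11 transcripts of 2610 to 43121 bases on arm 2L at 5100877 to 5207002. Svil, the fly supervillin, an actin- and membrane-binding protein, has 31 transcripts on arm 3L at 2377655 to 2499226 and the smallest ratio of the shorter genes. Its length was 6721, 6300 and 6611 bases in WT and 6035, 5949 and 5860 bases in KO, and its total abundance went from 45.7 to 122 TPM. brp, the scaffold of the synaptic active zone in neurons, was at 8367, 9882 and 9632 bases in WT and 7662, 8089 and 8028 bases in KO. brp, on arm 2R at 9503765 to 9541565, is itself among the neuron markers. Its total abundance was 8.05, 3.82 and 4.27 TPM in WT and 13.8, 9.44 and 8.92 TPM in KO, higher in every KO library, while the summed level of the neuron markers overlapped between the groups.

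CG5004, on arm X at 17107582 to 17135988, has short transcripts of 1800 to 2075 bases with 663 to 984 coding bases and long transcripts of 4563 to 5088 bases with 3441 to 3741. Its length was 4204, 4178 and 4174 bases in WT and 3757, 3678 and 3712 bases in KO, so the spread within a group was small beside the difference. heph, on arm 3R at 31846987 to 32015520, codes for a polypyrimidine tract binding protein, a regulator of splicing, and was longer in KO at 4815, 4754 and 4766 bases against 4235, 4200 and 4407 bases. Of its 25 transcripts 23 are 2391 to 3869 bases long and the other two are 7366 and 7770 bases, which were bounded at 8.47% to 40.5% of transcripts in WT and 22.7% to 48.7% in KO. MFS17, a transporter of the major facilitator family on arm 2R at 2494742 to 2565385, is the only gene of the 29 whose added bases are mostly internal, and it was at 2055, 1755 and 1870 bases in WT and 2251, 2285 and 2361 bases in KO. Its total abundance went from 33.2 ± 5.76 to 16.3 ± 0.869 TPM.

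ITP, which codes for ion transport peptide hormones on arm 2R at 24537421 to 24558961, was at 2696, 2801 and 2842 bases in WT and 3192, 3020 and 2986 bases in KO. CG42258, on arm X at 12463528 to 12478431, was at 2390, 2441 and 2484 bases in WT and 2670, 2824 and 2774 bases in KO. CG8786, named Rnf146 in the current annotation and coding for a ubiquitin ligase on arm 3L at 19637207 to 19642816, was at 2549, 2529 and 2705 bases in WT and 2977, 2724 and 2862 bases in KO, with the smallest gap of the 29 genes against the wider group's range, 0.075 times. galla-1, of the MIP18 family that serves iron-sulphur protein assembly, lies on arm 2R at 20670636 to 20673495 and was shorter in KO at 760, 779 and 798 bases against 862, 881 and 877 bases, with a total of 77.9 ± 1.35 TPM in WT and 77.7 ± 4.11 TPM in KO. In counts scaled to library size (CPM), galla-1 was at 41.0, 40.6 and 41.8 in WT and 38.2, 34.6 and 36.9 in KO. It was thus lower in every KO library, but was not called in the gene-level test given below.

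asRNA:CR44029, an antisense RNA on chromosome 4 at 879374 to 884752, has transcripts of 1932 and 5379 bases. Its length was 3158, 3224 and 3071 bases in WT and 3944, 3542 and 3832 bases in KO. Both forms were lower in KO, the long one from 6.60 to 2.75 TPM and the short one from 12.1 to 2.41 TPM on average. The gene on the opposite strand, unc-13, which primes vesicles for release, was also lower in KO, at 91.2 ± 3.80 TPM in WT and 25.3 ± 3.97 TPM in KO. The pair shares 705 exon bases, 150 of them among the 3447 added bases of the long form. Reads on the shared bases cannot be told apart unless the counting used strand.

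CG15861, on arm 2R at 24943392 to 24945201, was at 1446, 1563 and 1563 bases in WT and 1314, 1414 and 1382 bases in KO. The long form of 1563 bases was the whole of the estimate in WT replicates 2 and 3, and it averaged 15.7 TPM in WT and 3.97 TPM in KO. CG3770, on the opposite strand, covers 63 of its 496 added bases and averaged 53.9 TPM in WT and 35.65 TPM in KO. Obp44a, which codes for an odorant binding protein on arm 2R at 8134170 to 8135315, was at 694, 701 and 739 bases in WT and 784, 776 and 791 bases in KO. Its long form averaged 1.64 and 2.75 TPM with overlap. Obp44a shares 200 of 428 added bases with Pabp2, on the opposite strand, which was at 236 ± 19.5 TPM in WT and 313 ± 37.6 TPM in KO. Pabp2 was higher in every KO library than in every WT library. Bin1, on arm 3R at 16186156 to 16189564, is the fly form of SAP18, a subunit of the Sin3 repressor complex, and has transcripts of 669, 1240 and 3336 bases with the same coding sequence of 450 bases, the added bases lying upstream. Its length was 1757, 1579 and 1536 bases in WT and 1397, 1428 and 1422 bases in KO, and its total went from 255 ± 35.0 to 169 ± 5.34 TPM. Of its 2667 added bases 301 are exon of sra, on the opposite strand, at 47.7 ± 4.04 TPM in WT and 47.1 ± 8.93 TPM in KO. Reads of CG3770, Pabp2 and sra cannot be told apart from those of the added bases they cover unless the counting used strand.

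Some features of the annotation were not used to choose the genes. The longest transcript was a median of 2.81 times the shortest in the 29 genes and 1.31 times in the 2591 comparison genes, a difference that the ratio limit itself favours. All transcripts shared 1 coding sequence, or had none in the antisense RNA, in 15 of the 29 (51.7%) and in 47.9% of the comparison genes. The added bases of the longest transcript lay mostly downstream in 17 genes (58.6% against 51.8%), mostly upstream in 11 (37.9% against 28.6%) and mostly internal in 1 (3.45% against 19.5%). Here too the comparison genes were not matched for the range of transcript lengths. By chromosome arm, 8 of the 29 were on 3L, 7 each on 2R and 3R, 3 each on 2L and X, and 1 on chromosome 4, where X held 10.3% of the 29 and 19.6% of the qualifying genes. Exons of 19 of the 29 overlap another gene, and in 14 the added bases do, on the opposite strand in 9. Any number of shared bases was enough, such as the 4 that CG5004 shares with mei-218. These overlaps were not counted in the comparison genes, so they are not shown to be particular to the 29.

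The total output of these genes moved in both directions. In edgeR's quasi-likelihood test on expected counts, 2324 of 8405 genes tested (27.7%) were higher in KO and 2227 (26.5%) lower at an adjusted p under 0.05, 54.1% in all. Of the 29, 8 were called higher, 13 lower and 8 neither, and leaving out single libraries gave 6 to 8 higher and 10 to 13 lower. Among the 18 longer genes 5 were called higher and 8 lower, and among the 11 shorter genes 3 higher and 5 lower. The median log2 change in counts scaled to library size (CPM) was -0.24 over the 29 and 0.01 over all genes tested. These counts come from the contrast that chose the genes and are given as a description.

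The widest gene-level differences among the 29 lay at asRNA:CR44029, CG15861 and Svil. asRNA:CR44029 was at 35.7, 38.8 and 42.1 CPM in the WT libraries, against 14.6, 13.1 and 11.8 CPM in those of KO, a log2 change of -1.56 (SE 0.105). CG15861 was at 19.0, 15.4 and 15.97 CPM in the WT libraries, against 8.43, 4.10 and 5.29 CPM in those of KO, a log2 change of -1.49 (SE 0.247). Both were lower in every KO library. Svil was at 262, 176 and 168 CPM in the WT libraries, against 511, 503 and 474 CPM in those of KO, a log2 change of 1.296 (SE 0.164), with WT replicate 1 highest of its group. kappaB-Ras was at 27.3, 25.7 and 23.2 CPM in the WT libraries, against 12.1, 13.3 and 12.6 CPM in those of KO. krz was at 26.2, 21.0 and 22.7 CPM in the WT libraries, against 32.0, 39.1 and 43.6 CPM in those of KO, a log2 change of 0.71 (SE 0.133), so its total and its long form were both higher in every KO library. Dys was at 159, 145 and 145 CPM in the WT libraries, against 95.1, 80.5 and 75.0 CPM in those of KO, lower in total as well as shorter.

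Because TPM divides counts by length, a changed length moved TPM and CPM apart in these genes. The log2 change in TPM was below that in CPM in all 18 longer genes and above it in all 11 shorter genes. In 4 genes the signs were opposite, and 3 of them are given. CG7564 had a log2 change of -0.54 in CPM and 0.47 in TPM, so a lower count over a shorter length was listed as a higher TPM. The values were -0.20 and 0.80 for CG4456 and -0.47 and 0.30 for CG42512.

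**Figure D5:**
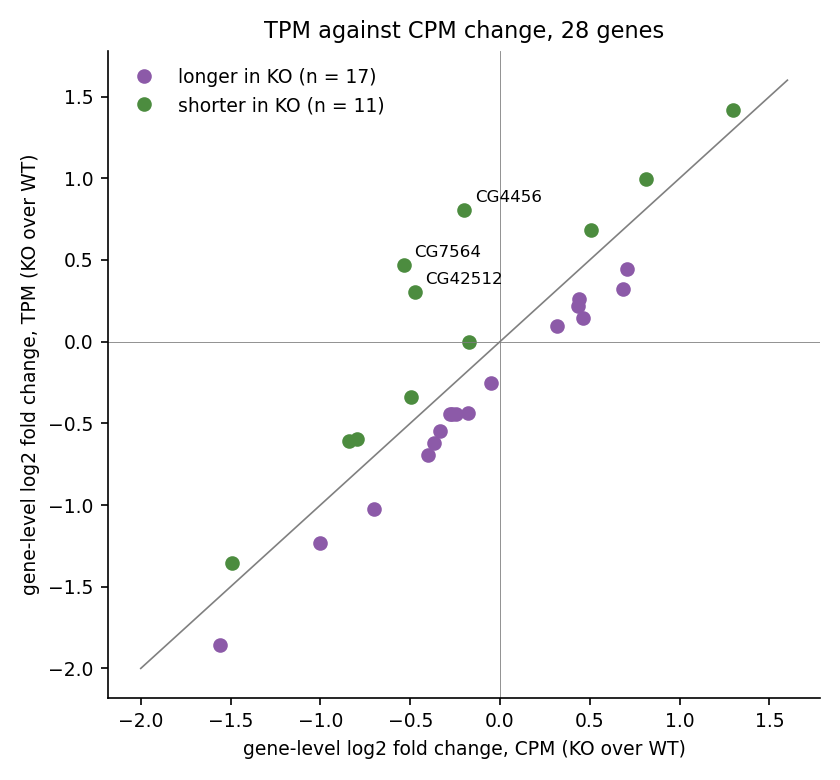
Log2 change from WT to KO in TPM (vertical) against that in CPM (horizontal) for 28 of the 29 genes, with the line of equal change. The 17 longer genes shown lie below the line and all 11 shorter genes above it, and CG7564, CG4456 and CG42512 differ in sign between the axes.

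Regulators of splice site choice were examined in the same way as a list. Of 59 listed genes 54 were found and 41 qualified, and lengths did not overlap in 10 that were longer and 2 that were shorter in KO, beside 12.0% and 9.47% of all qualifying genes. heph alone met the ratio limit, 2.44% of the list's qualifying genes. The ratios of the others ran from 0.947 to 1.07. The median absolute log2 ratio was 0.016 over the list and 0.0041 over all qualifying genes, a difference that was not tested. The list and the qualifying genes were not matched for number of transcripts or range of transcript lengths, so these medians are not on equal terms.

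The limit of 1.1 cuts through a continuous range of ratios. The members nearest to it were Svil at 1.1001 and CG8786 at 1.1004. Just outside were CG7220, shorter in KO at 1483, 1443 and 1440 bases against 1570, 1610 and 1607 bases, and CG42354, at 2819, 2763 and 2754 bases against 3120, 3024 and 2986 bases. Their ratios were 1.097 and 1.095.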

How the data were processed

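Poly(A) RNA of 3 WT and 3 KO libraries was sequenced, and the authors deposited a table per library with, per the file headers, the isoform-weighted length in bases, the expected count and the TPM of each gene. FPKM was not used. Per the submitters' processing notes the tools were RSEM 1.3.0, STAR 2.7.0f, CASAVA 1.7 and cutadapt, and the build was dm6. Not given in the sources used here were the annotation release, the RSEM options and whether strand was used. Length depends on RSEM's division of reads among transcripts, whose error is not in gene tables.

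Members were taken by the stated limits, and all but 1 of the 29 are named, which takes in those fixed for naming (the 8 with the largest ratio in each direction, the 8 with the largest change of share, the 6 with the highest mean TPM, those nearest the ratio limit and those in the list of splicing regulators). Genes that share exon bases with a member were looked up, and not all of them are named. Of the genes that meet the limits, 1 counted among the 29 is not named and 1 more is not counted, and neither is reported here. The members and all lists were chosen with earlier results of these data known. Transcript lengths, coding sequences and coordinates came from the Ensembl 115 annotation of the Drosophila genome (release 6). It gave the deposited length, within 0.01 base, in 10167 of 10205 genes with 1 transcript, and all 29 members lay within its range. In genes with 2 transcripts the long share was (length − short)/(long − short). With more, shares were bounded by splitting transcripts at the largest gap between lengths. Bounds on shares carry no sampling error.

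Expected counts were rounded and tested in edgeR 4.0.16 (R 4.3.3, quasi-likelihood, TMM, filterByExpr minimum count 10, Benjamini-Hochberg adjusted p under 0.05), after the script was tested on simulated data. Alternatives were DESeq2 1.42.0, a replicate block, other limits and leaving out libraries. CPM deviations of same-numbered libraries correlated over 8403 genes at 0.516, 0.132 and 0.425, over 0.1 in each pair, which is a reading from the data and not from the labels. The tests reported have no replicate block, and the block is an alternative. Length deviations correlated at 0.126, 0.084 and 0.102. The WT library 2 and KO library 3 pair, with different numbers, reached 0.422 in CPM. The lowest expected count of a member in any library was 33.1, and 24 of the 29 had at least 100 in every library.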

Additional observations from a re-analysis of the deposited data

How the results depend on the processing

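Counts of 18 longer and 11 shorter genes stayed within 1.5 times under most settings tried, and leaving out any library gave 17 to 21 longer and 11 to 15 shorter genes. Fewer libraries make separation easier to meet, so similar counts need not mean the same genes. Without WT replicate 1, 15 of the 18 and 9 of the 11 were kept, and without KO replicate 3, 15 and 10. A minimum of 1 TPM gave 24 shorter genes, and a minimum of 10 TPM gave 7. A ratio of 1.2 left 3 longer and 3 shorter genes, and a ratio of 1.5 left 0 longer and 3 shorter. The median change in long-transcript share, 17.5 percentage points in size, was 16.2 to 19.6 points without single libraries. With the replicate block, 2586 genes were higher and 2475 lower, against 2324 and 2227 without it, and no member changed its call. Leaving out single libraries gave 1814 to 2343 higher and 1807 to 2373 lower. Without both number-1 libraries 2902 were higher and 2899 lower, more than in any other setting, and the reason was not tested. Over all settings 26 gene-level calls of members were lost. With single libraries left out, the adjusted p of edgeR's quasi-likelihood test reached 0.0997 for brp, 0.119 for ITP, 0.0678 for CG4174, 0.0877 for Sry-beta, 0.0819 for CG3337 and 0.0561 for CG8786. The log2 length difference of CG3337 went from 0.27 to 0.16 without KO replicate 2, and that of Ac3 from 0.34 to 0.51 without WT replicate 1. Without both number-1 libraries it went from 0.14 to 0.090 for ITP and from -0.20 to -0.13 for Bin1, and 22 longer and 15 shorter genes met the limits, among them 15 of the 18 and 8 of the 11. Without WT replicate 1 the gene-level log2 change turned sign for CG4456 (0.041, with -0.40 the lowest over single libraries left out), Exn (0.11, lowest -0.32) and Obp44a (0.086, lowest -0.66), and without both number-1 libraries for Exn (0.046). None of these 4 values passed the test, and the cause was not tested. With 3 libraries per group no outlier test was made. Depth limits the members with few counts, and the error of RSEM's assignment among transcripts is unknown here.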

Other observations

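Genes that reached the ratio limit of 1.1 with overlapping groups numbered 2. They were Hez, at a ratio of 1.13, and CG34179, at 1.14.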
